A study of Mus musculus with 11 samples.

Results

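L1Md is the set of rodent LINE-1 subfamilies whose names begin with L1Md in the repeat annotation of the deposited count tables. It was chosen by name alone: an entry belonged to it when its family was L1 and its subfamily began with L1Md, written with a small d. This gave 25 subfamilies of 149 L1 subfamilies and of 58223 entries in all, and it left out 6 older mammalian L1 names written with capital MD. By the letters that follow L1Md, 7 subfamilies belong to lineage A, 3 to Tf, 2 to Gf, 5 to F, 2 to Fanc, 2 to Mus, 1 to N and 3 to V. The study compared total RNA, depleted of ribosomal RNA, from primary lung fibroblasts of cGAS KO mice and of wild-type (WT) mice. The KO group held 3 females and 3 males, the WT group 2 females and 3 males, and each library came from a separate mouse. All cells were grown at 37 °C in 5% CO2 and 5% O2 with 15% serum. The title of the series names LINE-1 derepression among its subjects, so the comparison asks whether L1Md RNA differed between the genotypes. The labels' extraction text speaks of pulverized tissue although the samples are described as cultured cells, and the strain, the age and the KO allele are not given in the sources used here.

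LINE-1 elements are retrotransposons that copy themselves through an RNA, which encodes an RNA-binding protein and a protein with endonuclease and reverse transcriptase activity. Most genomic copies are truncated and cannot move, and in mouse the intact, potentially mobile copies belong to lineages A, Tf and Gf, which are told apart by the repeated units of their promoters. The F lineages are older and no longer mobile, and within a lineage the Roman numeral generally rises with age. cGAS is the cytosolic sensor that binds DNA and makes the second messenger read by STING. DNA made from LINE-1 RNA is among the molecules it is known to detect, and DNA methylation and histone methylation keep LINE-1 promoters silent in somatic cells. Reads assigned to a subfamily also come from copies that lie in the introns and untranslated regions of ordinary transcripts. For that reason L1Md was also set against 4 ancient repeat families with no mobile copies, namely MIR, L2, hAT-Charlie and TcMar-Tigger (156 subfamilies).

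The libraries held 27261958 to 48039328 counts, of which repeats took 5.31% to 10.2%. L1Md received 62984 to 126354 counts per library, and single subfamilies 411 to 14256, so counting error was small beside the spread between animals. Cgas, the targeted gene, was at 1.61 to 2.26 CPM (counts scaled to a common library size) in the 6 KO libraries and at 5.86 to 9.98 CPM in the 5 WT libraries. The log2 difference was −1.99 (SE 0.16, edgeR adjusted p = 0.00102), and whether the counted reads cover the altered part of the gene was not analysed here. Fibroblast markers (Col1a1, Col1a2, Col3a1, Pdgfra, Pdgfrb, Thy1, Dcn and Lum) summed to 22925 to 34215 CPM over all libraries. The 7 epithelial markers summed to 9.001 to 34.8 CPM in KO and 19.8 to 42.4 CPM in WT, with Epcam and Scgb1a1 at or near 0 and most of the sum on the keratin genes Krt19, Krt8 and Krt18 and, in WT male 2, on Sftpc. The 5 endothelial markers summed to 54.4 to 101.5 CPM in KO and 38.9 to 83.9 CPM in WT. For KO against WT edgeR called 0 of the 5 tested epithelial and 0 of the 5 endothelial markers, and at an unadjusted p of 0.05 2 epithelial markers were lower and 2 endothelial markers higher in KO. All 8 macrophage markers were present, summing to 6508 to 11167 CPM in KO and 4658 to 6751 CPM in WT. WT female 2 stood apart from the other libraries: 5 nuclear RNAs that include Malat1 and Neat1 summed to 10205 CPM there and to at most 3648 CPM elsewhere, and 8 proliferation genes summed to 259 CPM there and to at least 455 CPM elsewhere. The names of the deposited count tables are styled differently in females and in males, while the sample titles are not. Sex and a possible difference in preparation therefore cannot be told apart.

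L1Md took a small share of all counts in both genotypes, and the mean share was lower in KO by less than the spread between animals. KO females had 0.212%, 0.246% and 0.231% of all counts on L1Md, and KO males had 0.194%, 0.160% and 0.168%. WT females had 0.212% and 0.305%, and WT males had 0.189%, 0.191% and 0.219%. WT female 2 was the highest library and KO males 2 and 3 the lowest, and the genotypes overlapped. The means were 0.202% ± 0.0343 in KO (SD, n = 6) and 0.223% ± 0.0476 in WT (SD, n = 5), a sex-adjusted log2 difference of −0.18 (SE 0.10) that is given as a description without a test. Without WT female 2 it was −0.094. The log2 difference changed sign, to 0.047 (SE 0.081), when the share was taken of repeat counts only. The 4 ancient families moved in the same way, with 0.352% ± 0.0704 of all counts in KO (SD, n = 6) and 0.404% ± 0.0819 in WT (SD, n = 5), and with WT female 2 again the highest at 0.548%. In bulk RNA, fewer cells of a type and less RNA per cell cannot be told apart. The part that the nuclear RNA, proliferation and macrophage levels played in these shares was not tested.

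**Figure D1:**
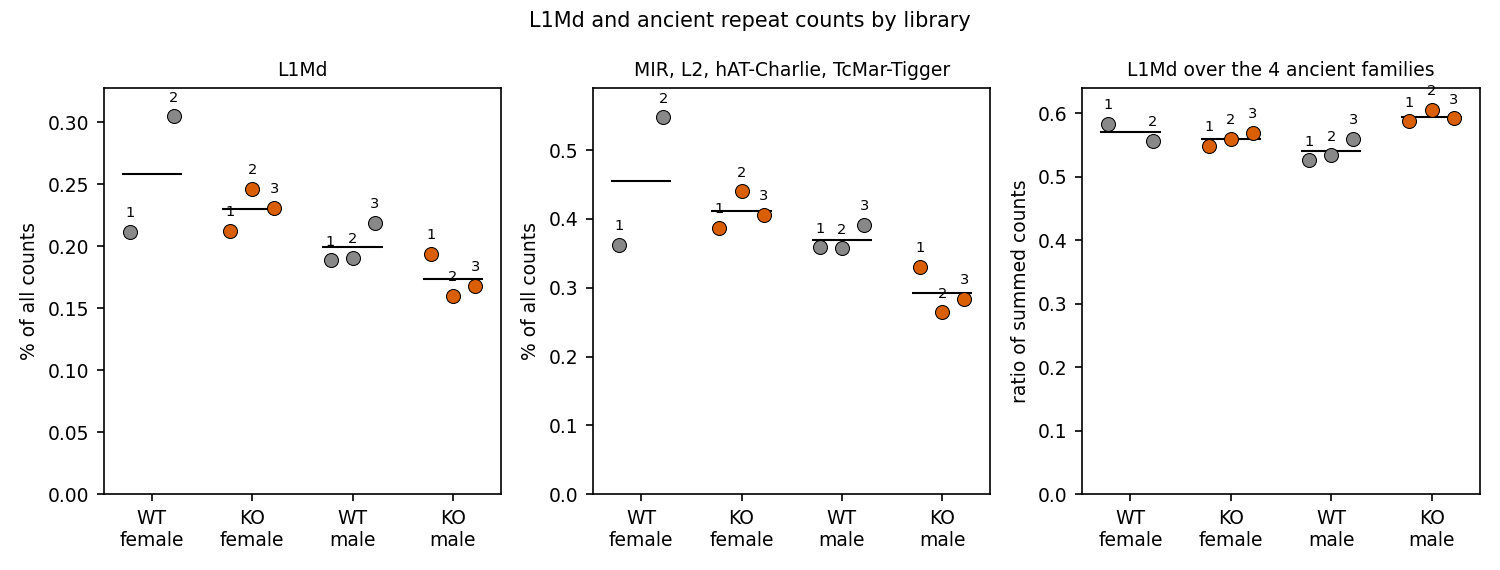
Share of all counts on L1Md (left, %) and on 4 ancient repeat families (middle, %), and the ratio of the summed counts (right). Each point is a library with its replicate number, grey for WT and orange for KO, and lines are group means. WT female 2 is the highest library in both shares, and in the ratio the 3 KO males (0.587 to 0.605) lie above the 3 WT males (0.5257 to 0.560). Per ancient repeat count, 33.2% of all entries tested have every KO male above every WT male.

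The ratio of L1Md to the ancient families varied less between libraries than the share did. KO females had ratios of 0.548, 0.559 and 0.569, and KO males 0.587, 0.605 and 0.592. WT females had ratios of 0.583 and 0.556, and WT males 0.5257, 0.534 and 0.560. Every KO male lay above every WT male, while the KO females lay within or below the range of the WT females. Per ancient repeat count, 33.2% of all entries tested had every KO male above every WT male. The means were 0.577 ± 0.0214 in KO (SD, n = 6) and 0.552 ± 0.0228 in WT (SD, n = 5), a sex-adjusted log2 difference of 0.065 (SE 0.036). Within males the log2 difference was 0.14 (SE 0.030) and within females −0.028 (SE 0.032). Both parts of the ratio had a lower share of all counts in the KO males than in the WT males: 0.174% ± 0.0177 against 0.200% ± 0.0171 for L1Md and 0.293% ± 0.0338 against 0.369% ± 0.0194 for the ancient families (SD, n = 3 each). The macrophage markers differed in the same libraries, with 11167, 9759 and 6537 CPM in the KO males and 4752, 6144 and 4658 CPM in the WT males, and their part in the ratio was not tested.

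Each subfamily was then tested for KO against WT with sex in the model, in a fit over all 22298 entries that passed a filter on low counts (all 25 L1Md subfamilies passed). No L1Md subfamily was called by edgeR at an adjusted p of 0.05, where 0.00448% of all entries were called. At an unadjusted p of 0.05, 3 of 25 passed, all lower in KO, where 17.2% of all entries passed in either direction. DESeq2 called 0 of 25 where it called 3.88% of the entries it gave an adjusted p, while 0 of 25 were called by limma-voom with quality weights per sample, where 14.6% were. The fitted log2 difference was negative for 24 of 25, with a median of −0.23 beside −0.015 over all entries tested. The 122 tested L1 subfamilies outside L1Md had a median of −0.25 and the 149 tested ancient subfamilies one of −0.28, so a median of this size was not particular to L1Md. The highest upper end of the 95% intervals was 0.29 on the log2 scale (1.22-fold), for L1MdA_I. No subfamily had KO and WT libraries without overlap in CPM, where 1.22% of all entries had.

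**Figure D2:**
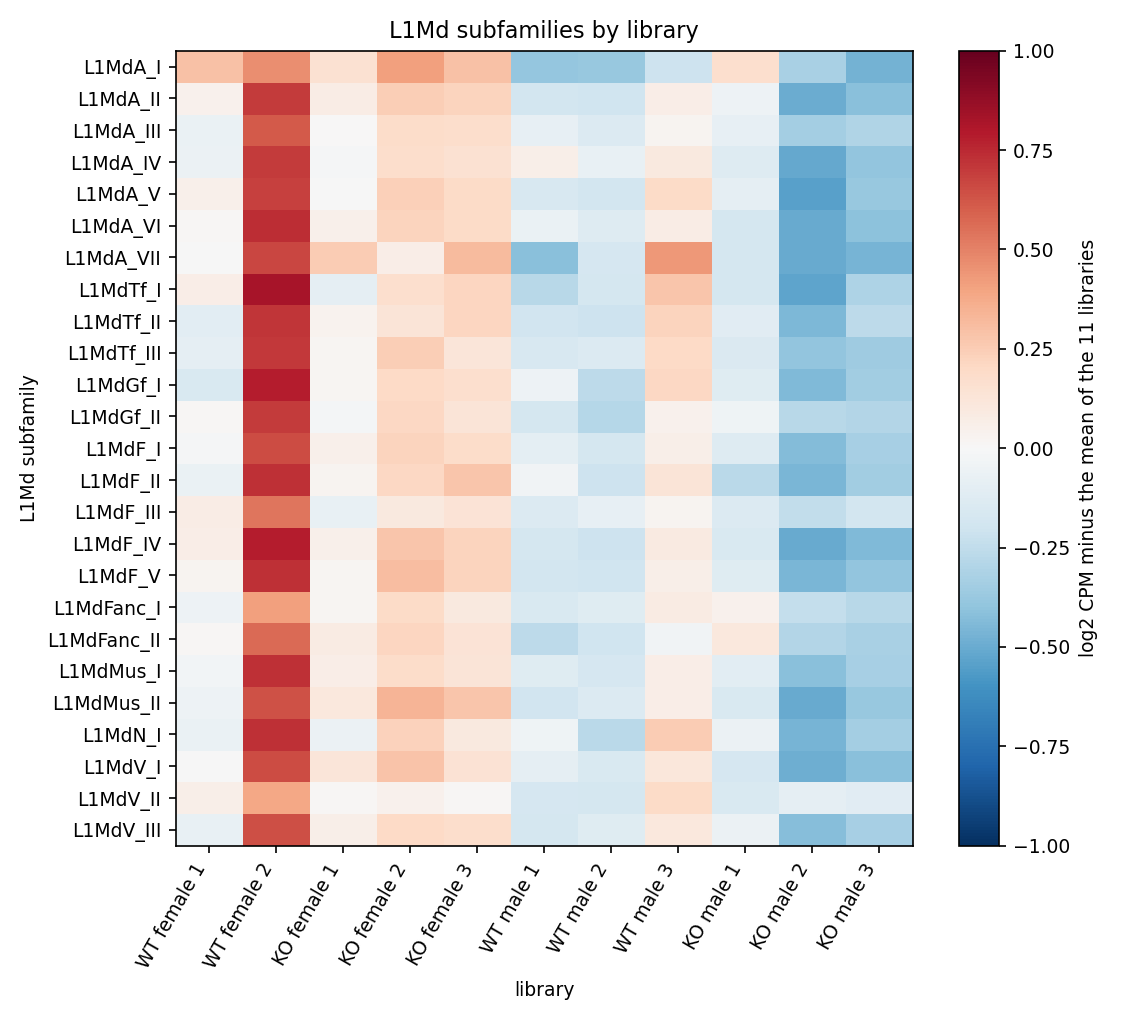
Log2 CPM of the 25 L1Md subfamilies (rows, by lineage) in the 11 libraries (columns), as the difference from the subfamily's mean over the libraries (colour scale, from −1 to 1). WT female 2 is the highest library for all 25 subfamilies, and KO male 2 is the lowest for 20.

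The subfamilies moved together from library to library. WT female 2 had the highest CPM for all 25. KO male 2 was the lowest library for 20, KO male 3 for 4 and WT male 2 for 1. Without WT female 2 the median log2 difference was −0.11, 2 subfamilies were positive and none passed an unadjusted p of 0.05 in edgeR (20.01% of all entries did), nor was any called. Without WT female 1, which leaves WT female 2 as the lone WT female, edgeR called 4 subfamilies lower in KO: L1MdA_IV, L1MdA_VI, L1MdF_II and L1MdV_I (adjusted p = 0.0280, 0.0305, 0.0351 and 0.0406). That is 4 of 25 in a fit that called 7.33% of all entries. In the full set of libraries 4 of the 5 nuclear RNAs were lower in KO at an unadjusted p of 0.05 and 0 were called by edgeR, and their part in the L1Md differences was not tested.

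**Figure D3:**
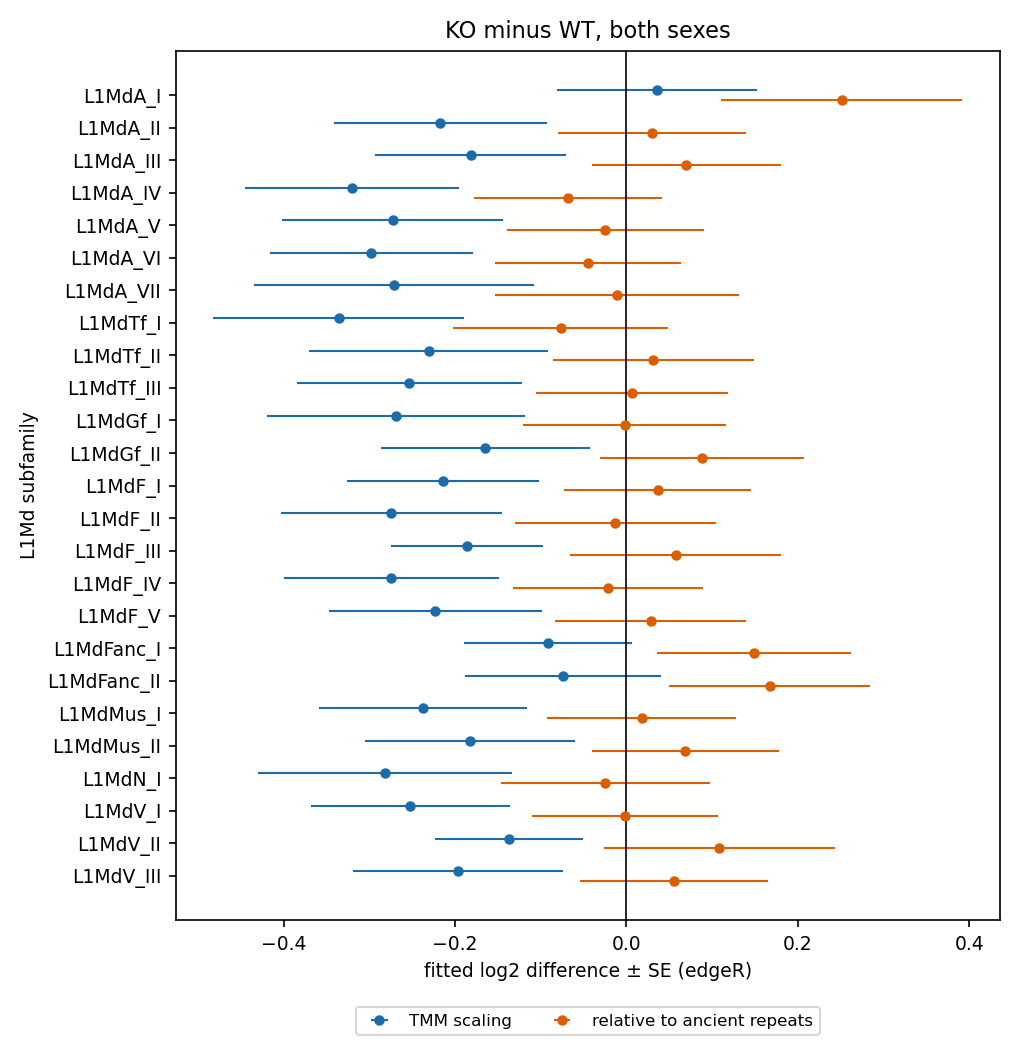
Fitted log2 difference, KO minus WT, with its SE, for each L1Md subfamily in edgeR (x axis), with usual TMM scaling (blue) and with libraries scaled by the ancient repeats (orange). With TMM scaling 24 of 25 points lie below 0, and relative to the ancient repeats 15 of 25 lie above it.

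Lineage A holds young, potentially mobile elements beside older ones, and it took the most L1Md counts (26.6% to 29.8% of them). Its share of all counts was 0.0579% ± 0.0116 in KO (SD, n = 6) and 0.0620% ± 0.0134 in WT (SD, n = 5). L1MdA_I, its youngest member, had 249, 297 and 274 CPM in KO females and 251, 179 and 161 CPM in KO males. WT females had 275 and 309 CPM, and WT males 171, 172 and 194 CPM. In both genotypes the females were mostly the higher libraries, and the genotypes overlapped. It was the only subfamily with a positive fitted difference, 0.035 (SE 0.12, edgeR adjusted p = 0.902), and the sign was not stable: it was −0.18 with the macrophage markers as a covariate and −0.099 without KO male 1. The level of L1MdA_IV ran from 37.8 CPM over a median of 51.2 to 60.6 CPM in KO, and it was 51.5 and 87.3 CPM in the WT females and 56.0, 51.0 and 57.5 CPM in the WT males. All 3 KO males were below all 3 WT males, whereas the KO females lay between both WT females (log2 difference −0.32, SE 0.12, edgeR adjusted p = 0.234). L1MdA_VI gave the same picture, at 50.6 to 83.6 CPM in KO with a median of 68.9, at 72.4 and 119.9 CPM in the WT females and at 68.7, 65.8 and 75.4 CPM in the WT males (log2 difference −0.30, SE 0.12, edgeR adjusted p = 0.242). The other 4 members, L1MdA_II, L1MdA_III, L1MdA_V and L1MdA_VII, had fitted differences of −0.27 to −0.18.

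Lineages Tf and Gf hold the other potentially mobile elements. Tf took 0.0143% ± 0.00247 of all counts in KO (SD, n = 6) and 0.0167% ± 0.00439 in WT (SD, n = 5). L1MdTf_I had the most negative fitted difference of the 25, −0.34 (SE 0.15, edgeR adjusted p = 0.272). Its level ran from 28.2 CPM over a median of 37.1 to 47.2 CPM in KO, and it was 42.4 and 71.9 CPM in the WT females and 33.5, 36.0 and 49.1 CPM in the WT males. The genotypes overlapped in both sexes except that WT female 2 exceeded every other library. L1MdTf_II, the Tf subfamily with the most counts, was at 42.8 to 67.9 CPM in KO with a median of 57.2, at 54.6 and 96.4 CPM in the WT females and at 51.4, 50.8 and 68.4 CPM in the WT males (log2 difference −0.23, SE 0.14, edgeR adjusted p = 0.406). L1MdTf_III, the third member, had a difference of −0.25. Gf took 0.0107% ± 0.00162 of all counts in KO (SD, n = 6) and 0.0120% ± 0.00318 in WT (SD, n = 5). Its leading member L1MdGf_II was at 57.1 to 80.7 CPM in KO with a median of 68.4, at 70.5 and 113 CPM in the WT females and at 61.9, 57.4 and 71.9 CPM in the WT males. The difference was −0.16 (SE 0.12, edgeR adjusted p = 0.501), and for L1MdGf_I it was −0.27.

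Lineage F, an older lineage, took 0.0503% ± 0.00875 of all counts in KO (SD, n = 6) and 0.0571% ± 0.0127 in WT (SD, n = 5). L1MdF_III, its member with the most counts, was at 147 to 191 CPM in KO with a median of 162, at 183 and 252 CPM in the WT females and at 158, 164 and 178 CPM in the WT males (log2 difference −0.19, SE 0.089, edgeR adjusted p = 0.308). L1MdF_IV was at 94.1 to 162 CPM in KO with a median of 129, at 139.9 and 229.8 CPM in the WT females and at 118, 116 and 142 CPM in the WT males (log2 difference −0.27, SE 0.13, edgeR adjusted p = 0.293). In both, the highest library was WT female 2 and the ranges of the genotypes overlapped. The remaining members L1MdF_I, L1MdF_II and L1MdF_V had differences of −0.27 to −0.21. Lineage Fanc had the differences nearest to 0 after L1MdA_I, at −0.091 for L1MdFanc_I and −0.074 for L1MdFanc_II. L1MdFanc_I was at 125 to 173 CPM in KO with a median of 154, at 146 and 200.3 CPM in the WT females and at 136, 139 and 159.9 CPM in the WT males (edgeR adjusted p = 0.655). The lineage took 0.0250% ± 0.00333 of all counts in KO (SD, n = 6) and 0.0261% ± 0.00425 in WT (SD, n = 5).

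Among the remaining lineages, Mus took 0.0156% ± 0.00293 of all counts in KO and 0.0176% ± 0.00423 in WT, N took 0.00136% ± 0.000240 and 0.00161% ± 0.000408, and V took 0.0268% ± 0.00379 and 0.0299% ± 0.00558 (SD, n = 6 and n = 5). L1MdMus_I was at 81.1 to 123 CPM in KO with a median of 107, at 106 and 180.0 CPM in the WT females and at 99.6, 96.8 and 113 CPM in the WT males (log2 difference −0.24, SE 0.12, edgeR adjusted p = 0.333). L1MdN_I, with the fewest counts of the 25, was at 10.4 to 16.9 CPM in KO with a median of 13.8, at 13.8 and 23.9 CPM in the WT females and at 14.0, 11.9 and 17.1 CPM in the WT males (log2 difference −0.28, SE 0.15, edgeR adjusted p = 0.345). In each of them WT female 2 lay above all other libraries and the other libraries of the genotypes were mixed. L1MdV_III was at 83.0 to 128 CPM in KO with a median of 112, at 106 and 175 CPM in the WT females and at 99.0, 103 and 120.1 CPM in the WT males (log2 difference −0.20, SE 0.12, edgeR adjusted p = 0.420). L1MdV_I was at 54.3 to 92.8 CPM in KO with a median of 75.3, at 76.0 and 119.8 CPM in the WT females and at 71.4, 68.7 and 82.5 CPM in the WT males (log2 difference −0.25, SE 0.12, edgeR adjusted p = 0.295). All 3 KO males were below the WT males for L1MdV_I. L1MdMus_II and L1MdV_II had differences of −0.18 and −0.14.

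Relative to the ancient repeats, L1Md was close to level between the genotypes. When the summed counts of the 4 ancient families set the scale of each library, edgeR called 0 of 25 subfamilies (0.00448% of all entries) and 0 of 25 at an unadjusted p of 0.05 (17.8% of all entries). limma-voom with the same library sizes also called 0. The median log2 difference was 0.028, from −0.077 for L1MdTf_I to 0.25 for L1MdA_I, and 15 of 25 were positive. Over all entries tested the median was 0.21 on this scale, since the ancient repeats themselves had a lower share in KO. The highest upper end of the 95% intervals was 0.55 on the log2 scale (1.47-fold), again for L1MdA_I. L1MdA_I, with a difference of 0.25 (SE 0.14, edgeR adjusted p = 0.345), gave 63.5, 68.6 and 66.2 counts per 1000 ancient repeat counts in KO females, with 74.4, 67.7 and 58.2 in KO males. WT females gave 75.7 and 53.5, and WT males 48.9, 50.3 and 49.7. All 6 KO libraries were above the WT males and WT female 2, and WT female 1 was above all KO libraries. Without WT female 1 the difference was 0.39 and passed the threshold (edgeR adjusted p = 0.0169), as the 1 member of 25 called in a fit that called 31.4% of all entries. L1MdFanc_II and L1MdFanc_I followed, with differences of 0.17 and 0.15 (edgeR adjusted p = 0.435 and 0.468). No subfamily had genotypes without overlap on this scale, where 0.462% of all entries had.

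The sexes were then taken apart with a mean for each genotype and sex. In males edgeR called 0 of 25 subfamilies (2.00% of all entries) and 0 at an unadjusted p of 0.05 (22.2% of all entries), and DESeq2 called 0 (11.2% of its entries). The median log2 difference was −0.23, and L1MdA_I (0.14, SE 0.15) and L1MdFanc_II (0.0080, SE 0.15) were the 2 positive ones. In females edgeR called 0 of 25 (0.00436% of all entries) and 0 at an unadjusted p of 0.05 (6.66% of all entries), and DESeq2 called 0 (0.0261% of its entries). The median there was also −0.23, with all 25 negative. Without WT female 1, when the lone WT female is assumed to vary like the other groups, 12 of 25 were called lower in KO females, in a fit that called 15.4% of all entries. The difference between the sexes itself was called for 0 of 25 by edgeR (0% of all entries), with 0 at an unadjusted p of 0.05 (13.1% of all entries) and 0 by DESeq2 (1.14% of its entries).

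**Figure D4:**
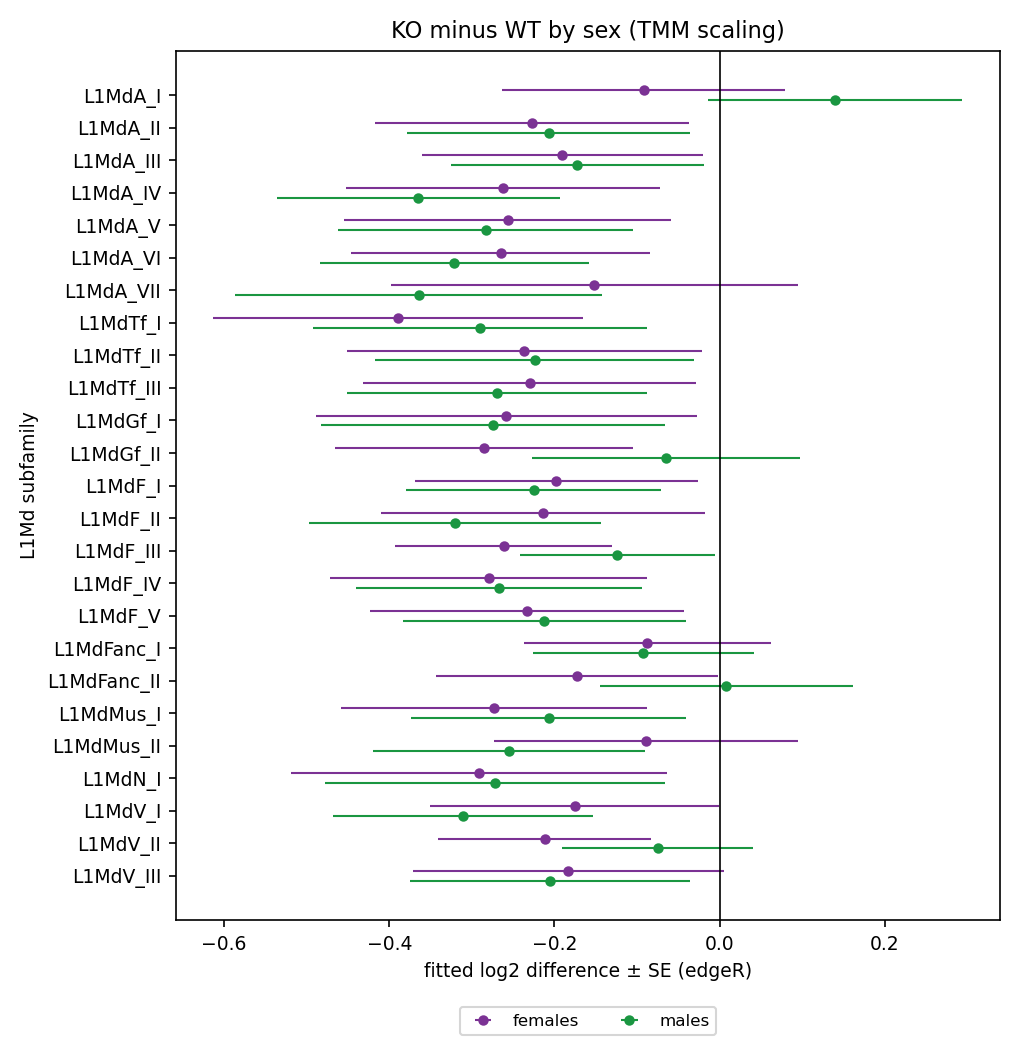
Fitted log2 difference, KO minus WT, with its SE, for each L1Md subfamily in females (purple) and in males (green), from edgeR with TMM scaling. All 25 female points and 23 of 25 male points lie below 0, and no difference between the sexes passed the test.

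Within males, 4 of 25 subfamilies (L1MdA_IV, L1MdA_VI, L1MdF_II and L1MdV_I) had every KO library below every WT library in CPM, which is 16.0% beside 13.4% of all entries. Per ancient repeat count, 9 of 25 had every KO male above every WT male, which is 36.0% beside 33.2% of all entries. L1MdA_IV alone had every KO male below every WT male, 1 of 25 (4%) beside 2.99% of all entries. The 9 were L1MdA_I, L1MdA_III, L1MdF_I, L1MdF_V, L1MdFanc_I, L1MdFanc_II, L1MdGf_II, L1MdMus_I and L1MdV_III. All of these shares were near those of all entries. In the fit relative to the ancient repeats, 0 of 25 were called in males (3.06% of all entries) and 1 of 25 passed an unadjusted p of 0.05 (24.1% of all entries). This was L1MdA_I, with a log2 difference of 0.43 (SE 0.18, edgeR adjusted p = 0.167), and in females its difference was 0.033 (SE 0.20, edgeR adjusted p = 0.985). The difference between the sexes was 0.39 (SE 0.26, edgeR adjusted p = 0.705), and on this scale 0 of 25 subfamilies passed for it at an unadjusted p of 0.05, where 2154 of 22960 entries did. Markers of other cell types differed within males too: 4 of 5 tested epithelial markers were lower in KO males at an unadjusted p of 0.05 (1 called), and of 5 endothelial markers 2 were higher and 3 lower (1 called, higher). Their part in the male values was not tested. L1MdFanc_I gave 45.9, 48.4 and 44.9 counts per 1000 ancient repeat counts in the KO males and 39.0, 40.6 and 41.0 in the WT males, without overlap. In the females it gave 39.1, 39.8 and 39.1 in KO and 40.0 and 34.7 in WT, with overlap. L1MdF_III gave 46.9, 55.5 and 55.3 counts per 1000 in the KO males beside 45.2, 47.9 and 45.5 in the WT males. Its CPM were not raised there, at 158, 147 and 153 in the KO males beside 158, 164 and 178 in the WT males.

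The clearer contrast was with sex. edgeR called 7 of 25 subfamilies lower in males than in females, with genotype in the model, where 4.29% of all entries were called in either direction. These were L1MdA_I, L1MdA_II, L1MdA_VI, L1MdF_IV, L1MdF_V, L1MdMus_II and L1MdV_I. The log2 difference of L1MdA_I was −0.58 (SE 0.12, edgeR adjusted p = 0.0325), and those of the other 6 were −0.55 to −0.48 (edgeR adjusted p = 0.0418 to 0.0483). All 25 had negative differences, with a median of −0.44 beside −0.0035 over all entries. Other repeats were lower too: 22 of 122 L1 subfamilies outside L1Md and 28 of 149 ancient subfamilies were called lower in males and none higher. DESeq2 called 20 of 25 lower (12.8% of its entries). No subfamily had every female above every male, where 2.40% of all entries had. For L1MdA_I the lowest female (KO female 1) was at 249 CPM and the highest male (KO male 1) at 251 CPM. Relative to the ancient repeats edgeR called 0 of 25 (32.2% of all entries), with none at an unadjusted p of 0.05 and a median of 0.014.

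The count of subfamilies called by sex rested on single libraries. It was 24 of 25 without WT female 1, where 14.6% of all entries were called, and 12 without WT male 3, where 7.44% were. It was 3 without KO male 1 (1.95% of all entries) and 1 without KO female 1 (0.998% of all entries). Leaving out any one of the other 7 libraries (WT female 2, WT males 1 and 2, KO females 2 and 3, KO males 2 and 3) gave 0, with 0.471% to 2.24% of all entries called. Proliferation genes and nuclear RNAs also differed by sex. The 8 proliferation genes summed to 259 to 512 CPM in females and 514 to 1059 CPM in males, and 2 of 8 were called higher in males. Of the 5 nuclear RNAs 0 were called and 4 were lower in males at an unadjusted p of 0.05. Their part in the sex difference was not tested.

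**Figure D5:**
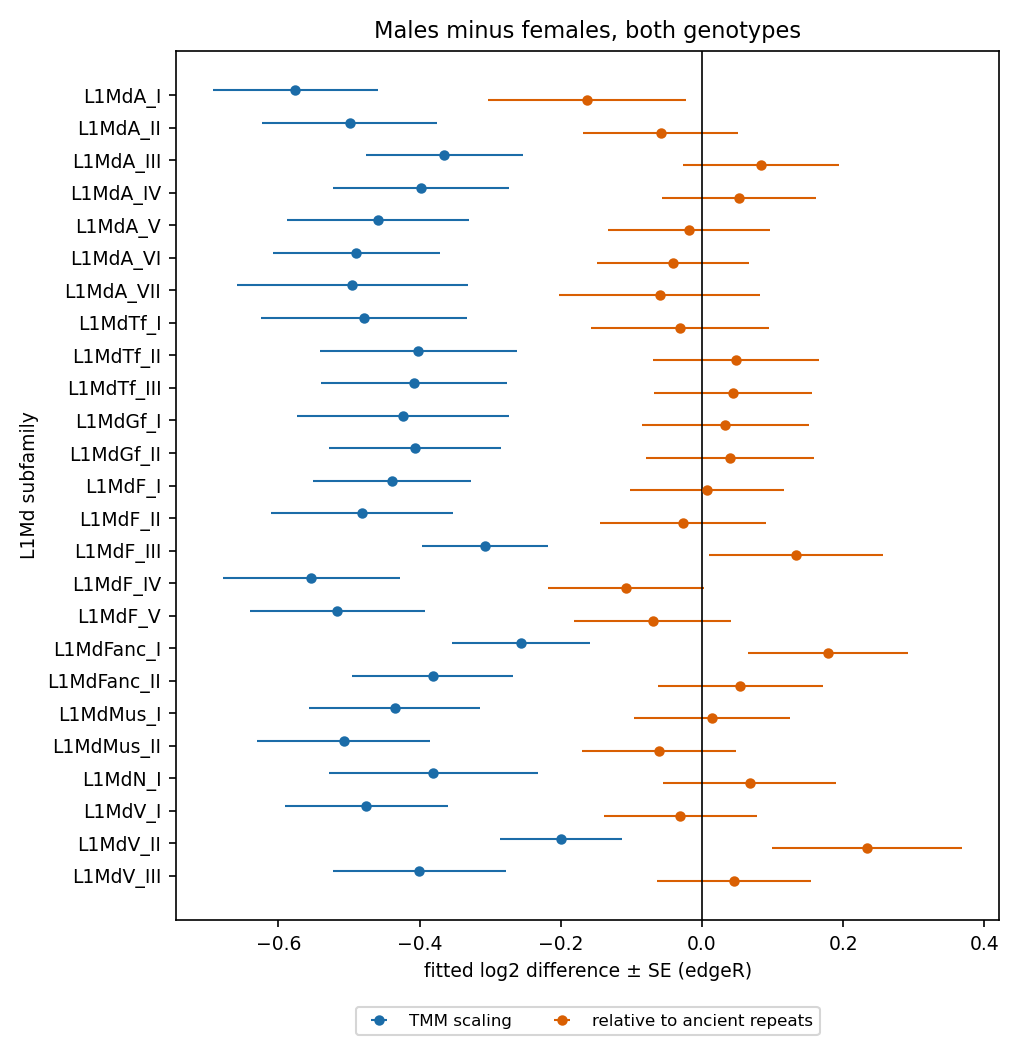
Fitted log2 difference, males minus females, with its SE, for each L1Md subfamily in edgeR, with TMM scaling (blue) and relative to the ancient repeats (orange). With TMM scaling all 25 points lie below 0, with a median of −0.44, and relative to the ancient repeats the median is 0.014.

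Genes that silence LINE-1 or act on its RNA and DNA were looked at in the same fit of KO against WT. Of 26 silencing genes (writers and readers of histone and DNA methylation, the HUSH complex and related factors) and 14 restriction genes, edgeR called 0 of 40. At an unadjusted p of 0.05, 3 silencing genes were higher and 1 lower in KO, and 2 restriction genes were higher, so that 6 of 40 passed (17.2% of all entries). The count called higher was 1 with DESeq2 and 5 with the weighted limma-voom fit. DESeq2 called 3.88% of the entries it gave an adjusted p, and the weighted fit called 14.6% of all entries. The medians of the fitted log2 differences were 0.0028 for silencing and 0.089 for restriction, beside −0.015 over all entries. Dnmt3a, a DNA methyltransferase that sets new methylation, was at 134 to 180.4 CPM in KO and at 113 to 145 CPM in WT, with means of 153 ± 17.7 (SD, n = 6) and 131 ± 11.9 (SD, n = 5). Its log2 difference was 0.24 (SE 0.081, edgeR adjusted p = 0.202). Setdb1, a histone methyltransferase recruited with Trim28, averaged 50.1 ± 3.97 CPM over KO (SD, n = 6) against 43.6 ± 4.82 CPM over WT (SD, n = 5), with a difference of 0.21 (SE 0.087, edgeR adjusted p = 0.263). Ehmt2, the histone methyltransferase G9a, had a difference of 0.14 (SE 0.063, edgeR adjusted p = 0.282).

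Among the restriction genes, Trex1, the exonuclease that removes cytosolic DNA, averaged 6.39 ± 0.727 CPM over KO (SD, n = 6) against 5.16 ± 0.841 CPM over WT (SD, n = 5), a difference of 0.32 (SE 0.12, edgeR adjusted p = 0.232). Mov10, an RNA helicase that limits LINE-1, was at 40.3 ± 2.64 and 37.2 ± 3.39 CPM, a difference of 0.13 (SE 0.065, edgeR adjusted p = 0.325). Of the 8 macrophage markers 7 had higher fitted levels in KO at an unadjusted p of 0.05 and 0 were called by edgeR, and their part in these differences was not tested.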

How the data were processed

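For each library the authors deposited a table of unnormalized counts, as whole numbers, for genes and repeat subfamilies together. The submitters' processing notes name Trim Galore, STAR and the build GRCm39. The counting program, its strand setting, its annotation and how it placed multi-mapping reads are not given in the sources used here, so reads of near-identical copies may be shared between subfamilies in an unknown way, and overlapping genes cannot be separated. Subfamilies and lineages were ranked by counts only. These ranks were not read as RNA per copy, because counts depend on the number and length of the copies. Positions of single copies and consensus sequences were not analysed here.

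Gene symbols came from GENCODE vM21 (GRCm38), used only for names. All genes of the lists matched.

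CPM were the deposited counts over library sizes scaled by TMM (factors 0.951 to 1.04). Tests used edgeR 4.0.16 in R 4.3.3 (quasi-likelihood F-test, minimum count of 10 in filterByExpr), on genes and repeats together. A model with sex and genotype had 8 residual degrees of freedom, and one with a mean per genotype and sex had 7. P-values were adjusted by Benjamini-Hochberg over all tested entries and called at 0.05. The SE and the 95% intervals were derived from the F statistic and its degrees of freedom. Shares and ratios were compared on the log2 scale by least squares with sex, without a test. Alternatives used DESeq2 1.42.0, limma 3.58.1 (voom), other scalings, filters and covariates, and each library left out. The procedure was run on simulated data with larger differences than those of L1Md and the same spread for all entries. That run does not measure how well differences of the size seen here would be found. In 1 library a count of 0 allows up to 3 counts, or 0.0624 to 0.110 CPM, covering counting error only.

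The members and gene lists were chosen with earlier results of these data known. Given in full were the subfamily with the most counts in each lineage, the 5 subfamilies with the smallest p, the 3 silencing and 3 restriction genes with the smallest p, and Cgas. One result that this rule selects is not reported here. Libraries of 1 group differed by more than sampling noise (chi-square per degree of freedom 12.0 to 144). Replicate numbers are not stated to pair KO with WT animals, and the main models did not pair them. The correlation of deviations from group means was −0.145 to 0.0731 between same-numbered KO and WT libraries and −0.238 to 0.192 between the others. With so few libraries per group these values cannot decide whether the numbers pair.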

Additional observations from a re-analysis of the deposited data

Results flagged for a closer look

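WT female 2 lay far above the other 4 WT libraries in 11 of the 23 measures examined, and no other library was flagged. The 46 groups of values examined were 23 measures in each genotype, and chance flags about 1 in 20 groups. Its L1Md share was 0.305% of all counts with the next WT library at 0.219%. Its share of lineage F was 0.0793% with the next at 0.0547%, and of lineage Mus 0.0250% with the next at 0.0170%.

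For single subfamilies WT female 2 stood at 252 CPM for L1MdF_III (next 183), 113 for L1MdGf_II (next 71.9), 180.0 for L1MdMus_I (next 113) and 175 for L1MdV_III (next 120.1). It stood at 87.3 CPM for L1MdA_IV (next 57.5), 119.9 for L1MdA_VI (next 75.4), 229.8 for L1MdF_IV (next 142) and 119.8 for L1MdV_I (next 82.5). These measures share a library, so they do not count as separate events.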

How the results depend on the processing

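For KO against WT, 0 subfamilies were called under every alternative of scaling, filter, tool and covariate tried, and 0 to 4 when each library was left out in turn. Relative to the ancient repeats the calls were 0 under every alternative reference and 0 to 1 with a library left out. In males and for the genotype-by-sex difference 0 were called throughout, and in females 0 to 12 with a library left out. With the replicate block, 0 subfamilies were called on either scale, the median log2 difference was −0.22, the share differed by −0.18 and the ratio by 0.068, and no call changed.

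Males against females gave 20 calls with DESeq2, 0 to 24 with a library left out and 0 when scaled by the ancient repeats. Silencing and restriction genes gave 1 call with DESeq2, 5 with limma-voom with quality weights and 0 to 2 with a library left out. The share reversed to 0.047 over repeat counts, and ranged from −0.27 to −0.094 with a library left out. The ratio was −0.028 in females alone and 0.14 in males alone, and ranged from 0.047 to 0.095 with a library left out. The causes were not tested.

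Of 286 values for 13 named subfamilies, 275 kept direction and side of the threshold, 3 newly passed it (without WT female 1), and the 8 that reversed were called in neither setting. L1MdA_I became −0.18 with a macrophage covariate, −0.068 without WT female 2 and KO male 1, −0.099 without KO male 1, −0.011 without WT male 1 and −0.0073 without WT male 2 (−0.099 to 0.072 with a library left out). L1MdGf_II became 0.017 with quality weights. Scaled by the L1Md sum, L1MdFanc_I became 0.084 and L1MdGf_II 0.023. The median relative to the ancient repeats became −0.020 against L2 alone. Scalings by the L1Md sum, by the ancient repeats for sex, and the share and ratio without L1MdA_I (−0.20 and 0.043) were added after the data were seen. At least 1000 counts in every library were reached by 22 subfamilies, and L1MdA_V, L1MdF_II and L1MdN_I fell below this in some or all libraries.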

Other observations

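L1MdA_I made up 11.6%, 12.3% and 11.6% of L1Md counts in KO females and 12.7%, 11.2% and 9.83% in KO males. For WT the values were 13.0% and 9.62% (females), then 9.31%, 9.41% and 8.87% (males). Every KO male was above every WT male, and in the females WT female 1 was above and WT female 2 below all 3 KO libraries. How many other entries separate the males in this way per L1Md count was not examined. Without L1MdA_I the ratio of L1Md to the ancient families was 0.510 ± 0.0217 in KO (SD, n = 6) and 0.496 ± 0.0151 in WT (SD, n = 5).

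L1MdV_II, from an older lineage, gave its most counts per 1000 ancient repeat counts in KO males 2 and 3, at 32.0 and 30.2. KO male 1 gave 24.1, the WT males 23.0 to 26.4 and the females of both genotypes 20.6 to 25.9. In CPM L1MdV_II was at 81.5, 84.8 and 83.7 in the KO males and at 80.3, 80.1 and 103 in the WT males. Its highest CPM was 118.5, in WT female 2. The values per 1000 were noticed after they were seen.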
